A study of Mus musculus with 3 samples.

Results

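The interferon lambda genes and the receptor chains for type I, type II and type III interferon were followed in RNA from the cornea of mice, the clear window at the front of the eye. The set holds 8 genes, taken by symbol from a deposited table of 21760 genes. It has 2 lambda ligand genes, Ifnl2 and Ifnl3, and 6 receptor chain genes, Ifnlr1, Il10rb, Ifnar1, Ifnar2, Ifngr1 and Ifngr2. The genes were chosen by symbol with their counts in these 3 libraries known, so all their values are a description with no test. All 8 had at least 20 counts in at least 1 library, Ifnl2 and Ifnl3 through 1 library alone.

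The study has 3 libraries, 1 per group, and its question is what the α7 nicotinic acetylcholine receptor does in dry eye disease. The sham library came from mice in which the skin was cut near the lacrimal glands and the glands were left alone. For the excision library the lacrimal gland, which makes most of the tear fluid, had been taken out to bring about dry eye. The third library came from mice treated 3 times a day with drops of the α7 receptor agonist PNU-282987. The sources used here do not say whether the treated mice kept their lacrimal glands, nor do they give strain, age, sex or the number of mice behind a library. With no replicates the variation between mice is unknown, and each comparison is between 2 libraries. Intervals are exact 95% counting intervals and cover counting error only. Total counts were 37703843, 37692972 and 39616004. These and all later triplets of values run from sham through excision to PNU-282987. A level is given in CPM, the counts in each 1000000, after scaling each library with its TMM factor, a trimmed mean that evens out library composition. A ratio is a ratio of such levels, and a gene was called higher or lower when its ratio reached 2-fold and its interval left out equal levels.

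Interferons are secreted proteins that cells release when they sense viral nucleic acid or other danger, and each type acts through its own pair of receptor chains. Type III interferon, or interferon lambda, binds the chain encoded by Ifnlr1 and signals with the interleukin-10 receptor beta chain encoded by Il10rb, and its response is strongest at epithelial barriers. Type I interferon binds the Ifnar1 and Ifnar2 chains, which most cells carry, and interferon gamma binds the Ifngr1 and Ifngr2 chains. The type I and type III receptors both activate the kinases JAK1 and TYK2, while the gamma receptor activates JAK1 and JAK2.

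Ifnl2 and Ifnl3 are close copies, which bears on how their counts can be read. In GENCODE M21 (mouse build GRCm38) both lie on chromosome 7 on opposite strands, each with 5 coding exons. Their coding sequences are 582 bases long and differ at 17 positions, an identity of 97.1%, and the longest stretch without a difference is 166 bases. The 150 bases with the most differences are coding bases 414 to 563, counted from the A of the start codon. They are printed 5′ to 3′ to show where reads could tell the genes apart, with the 10 differing bases in capitals.
Ifnl2: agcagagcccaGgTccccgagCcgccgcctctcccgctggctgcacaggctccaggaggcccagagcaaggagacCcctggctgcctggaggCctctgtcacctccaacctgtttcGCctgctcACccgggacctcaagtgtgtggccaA
Ifnl3: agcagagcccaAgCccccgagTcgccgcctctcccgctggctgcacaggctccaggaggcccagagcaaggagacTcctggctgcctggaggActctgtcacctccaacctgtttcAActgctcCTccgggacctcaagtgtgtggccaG
Of all stretches of 50 bases in the Ifnl2 coding sequence 38.8% occur unchanged in Ifnl3, against 13.9% of stretches of 100 bases and 3.93% of stretches of 150 bases. The sources used here do not state the read length or what was done with reads that match both genes. The split of counts between the pair is therefore uncertain, and their sum is less so.

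The lambda ligands were detected in the excision library alone. Ifnl2 (gene ID 330496) had 0, 101 and 0 counts. Ifnl3 (gene ID 338374) had 0, 82 and 0 counts. Both genes were thus at 0 outside excision. The excision level of Ifnl2 was 2.72 CPM (interval 2.22 to 3.31) and that of Ifnl3 was 2.21 CPM (1.76 to 2.74), against floors of 0.0768 CPM in sham and 0.0773 CPM in PNU-282987, the level of 3 counts. With 0 entered as the floor, Ifnl2 was 35.4-fold higher in excision than in sham and Ifnl3 28.8-fold higher. These folds leave out the counting error of the excision counts, and the lower ends of their intervals were 28.3 and 22.9. Set against PNU-282987 in the same way, excision was 35.2-fold higher for Ifnl2 (lower end 28.1) and 28.6-fold higher for Ifnl3 (lower end 22.7). No ratio exists for PNU-282987 against sham, where both libraries were at 0.

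Summed, which removes the uncertain split, the pair had 183 counts (4.93 CPM) in excision. With 0 entered as the floor, the pair was 64.2-fold higher there than in sham (lower end of the interval 51.7). Against PNU-282987 it was 63.8-fold higher (lower end 51.4). The floor of 3 counts stood for the sum as it did for each gene alone. The larger folds of the sum follow from that and are not a stronger difference. Ifnl2 took 55.2% of the pair's 183 counts (exact binomial interval 47.7% to 62.5%), so a deviation from an even split was not detectable at this depth. The transcripts stood in the middle of the table by counts, with 49.8% of its genes below Ifnl2 and 48.4% below Ifnl3 in that library. Over the whole table, excision was called higher than sham for 4.01% of genes with a ratio and PNU-282987 lower than excision for 5.62%. Both lambda ligands were called in each of these comparisons, and since they were chosen with these counts known nothing is read from that number.

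No other interferon gene that was analysed had more than 4 counts in a library. Ifnb1, the type I interferon made early by most infected cells, had 0, 4 and 0 counts. Ifng, which encodes interferon gamma of T and NK cells, had 0, 1 and 0 counts. Ifnz had 0, 1 and 0 counts, and Ifnk, a type I interferon of keratinocytes, had 0, 0 and 1. The lambda pair, chosen with these counts known, took 183 of the 189 excision counts of the 6 ligand genes analysed, or 96.8% (93.2% to 98.8%). The other 15 ligand genes of the list, most of them interferon alpha genes, were not analysed here. In sham all 6 ligand genes that were analysed were at 0.

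**Figure D1:**
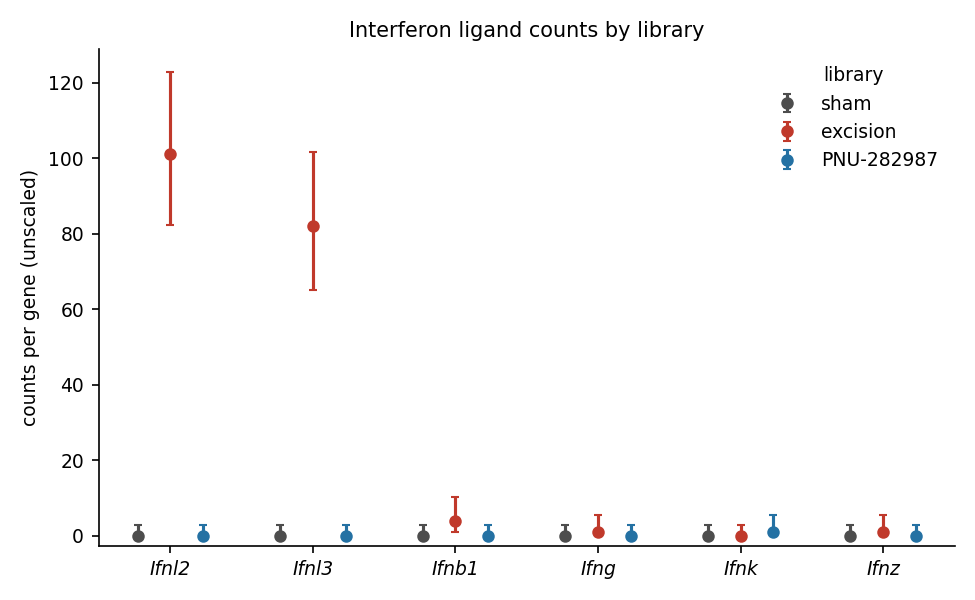
Unscaled counts of the 6 interferon ligand genes that were analysed, by library, with exact 95% Poisson intervals (for a count of 0, the bar ends at the floor of 3 counts). Ifnl2 and Ifnl3 stand at 101 and 82 counts in excision, and every other point lies at 4 counts or fewer.

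Markers of cells known to make interferon were measured beside the ligands. Of 9 T and NK cell markers 4 passed the count minimum, all through excision alone, so that their calls as higher there carry no weight as a count. The 9 summed to 0.358, 5.76 and 0.824 CPM, with 4, 1 and 2 of them at 0. Klrb1c, a receptor gene of NK cells, had 5, 0 and 0 counts. Among the 4 that passed, Cd3g, a chain of the T cell receptor complex, had 0, 28 and 0 counts. For plasmacytoid dendritic cells, which release much type I and type III interferon, none of the 3 measured markers was called between excision and sham, and 5 markers summed to 20.9, 17.0 and 18.1 CPM. Most of that sum was Tcf4, which other cell types express too, and the other 4 summed to 3.35, 4.28 and 6.08 CPM. The defining marker Siglech had 1, 4 and 0 counts and Spib, a transcription factor gene, 1, 10 and 2, both under the count minimum. Macrophage and dendritic markers were called higher in excision for 5 of 7 measured (Itgax passed the minimum through excision alone), with sums over 9 genes of 26.1, 56.2 and 39.6 CPM. Of all genes 4.01% were called higher in excision than in sham and 5.48% lower. The part of these cells in the lambda counts was not tested. In a bulk sample, fewer cells of a type and less RNA per cell cannot be told apart.

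Few genes shared the counts pattern of the lambda pair. With at least 20 counts in excision and at most 3 in both other libraries there were 19 genes, and 6 had 0 in both. Ifnl2 and Ifnl3 had the most counts of these 6, which also held Retnla, Cd3g, H2-Q9 and Ppp2r2c. For comparison, 1 gene with at least 20 counts in sham and 4 with at least 20 in PNU-282987 were at 0 in both other libraries. Ranked by excision counts and leaving out gene models, the nearest were Tgtp2, an interferon-induced GTPase gene with 1, 119 and 1 counts, and Car1, a carbonic anhydrase gene with 1, 81 and 1. The class I-like gene H2-Q7 had 2, 66 and 0 counts, Hsh2d 1, 50 and 2, and Cd8a, the co-receptor of cytotoxic T cells, 0, 37 and 1. Retnla had 0, 34 and 0 counts. Tgtp2 and the H2-Q genes have close copies and may exchange reads, and the pattern rests on 3 libraries.

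In contrast to the ligands, no receptor chain reached 2-fold in any of the 3 comparisons. The 6 chains summed to 295, 250.2 and 321 CPM. Their median log2 ratio for excision against sham was -0.22, where the median of all genes was -0.003. For PNU-282987 against excision it was 0.28 against 0.008 for all genes, and for PNU-282987 against sham 0.04 against 0.0001. Each pair of these comparisons shares a library, so a low excision value enters the first and the second.

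The 2 chains of the lambda receptor differed from each other in where they were highest. Ifnlr1 (gene ID 242700), the ligand-binding chain, had 1165, 1226 and 1191 counts, or 29.8, 33.0 and 30.7 CPM. Its level was highest in the excision library, by a small margin. The ratio of excision to sham was 1.11 (1.02 to 1.20) and lay between 1.05 and 1.17 over 6 ways of scaling, with an interval above equal levels in 5 of them. PNU-282987 was 1.08-fold lower than excision, an interval that included equal levels (0.993 to 1.17), although the interval lay below them when scaled to the corneal epithelium genes (ratio 0.777). The ratio of PNU-282987 to sham was 1.03 (0.948 to 1.12) and turned to 0.973 when scaled to total counts and 0.907 when scaled to the epithelium genes.

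Il10rb (gene ID 16155), the shared chain, which also serves the receptors for interleukin-10 and interleukin-22, had 1258, 1006 and 1390 counts, or 32.2, 27.1 and 35.8 CPM. It was lowest in excision and highest in PNU-282987. Excision was 1.19-fold lower than sham (1.09 to 1.29), and PNU-282987 was 1.32-fold higher than excision (1.22 to 1.43). PNU-282987 was 1.11-fold higher than sham (1.03 to 1.20), a direction that turned when scaled to the epithelium genes (0.980).

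The type I receptor chains differed little. Ifnar1 (gene ID 15975), which couples the receptor to TYK2, had 1080, 887 and 1037 counts, or 27.7, 23.9 and 26.7 CPM. Excision was 1.16-fold lower than sham (1.06 to 1.27), and PNU-282987 was 1.12-fold higher than excision (1.02 to 1.22), the latter turning to 0.935 when scaled to the epithelium genes. Ifnar2 (gene ID 15976), the high-affinity chain, had 311, 277 and 311 counts, or 7.96, 7.46 and 8.01 CPM. It had the fewest counts of the 6 chains, and none of its 3 intervals left out equal levels. The ratio of excision to sham was 0.937 (0.794 to 1.11).

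The interferon gamma receptor chains had the most counts. Ifngr1 (gene ID 15979), the ligand-binding chain, had 3144, 2564 and 3871 counts, or 80.5, 69.1 and 99.7 CPM. The excision library was the lowest and the PNU-282987 library the highest. Excision was 1.17-fold lower than sham (1.11 to 1.23). PNU-282987 was 1.44-fold higher than excision (1.37 to 1.52) and 1.24-fold higher than sham (1.18 to 1.30), and these kept intervals above equal levels under all 6 scalings.

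Ifngr2 (gene ID 15980), the signalling partner that brings JAK2, had 4558, 3327 and 4678 counts, or 116.7, 89.6 and 120.5 CPM. It was lowest in excision, with sham and PNU-282987 close together. Excision was 1.30-fold lower than sham (1.25 to 1.36), the largest difference of a receptor chain in that comparison, and PNU-282987 was 1.34-fold higher than excision (1.29 to 1.41). The ratio of PNU-282987 to sham was 1.03 (0.991 to 1.08), and it turned to 0.977 when scaled to total counts and 0.910 when scaled to the epithelium genes.

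**Figure D2:**
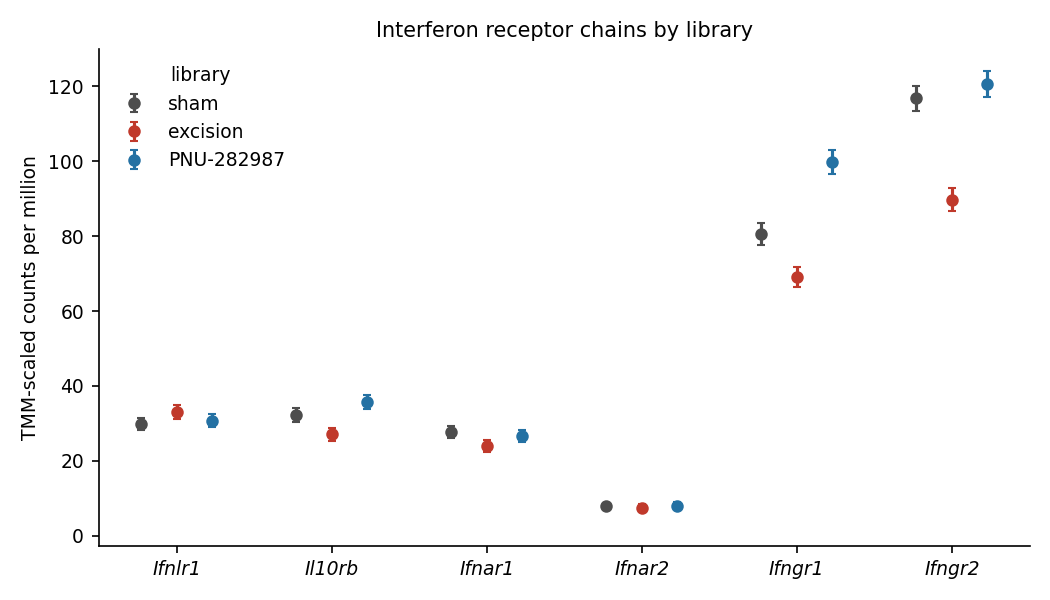
TMM-scaled CPM of the 6 receptor chains by library, with exact 95% Poisson intervals. Ifnlr1 is highest in excision at 33.0 CPM, and the other 5 chains are lowest there, Ifnar2 within its counting error.

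Differences of this size were common in the table. Between excision and sham 4 of the 6 chains had an interval below equal levels and 1 above, at any fold, where 30.2% and 29.6% of all genes did. Between PNU-282987 and excision 4 chains had an interval above equal levels and none below, where 32.7% and 30.6% of all genes did. Between PNU-282987 and sham 2 chains were above and none below, against 30.1% and 27.7%. By the 2-fold rule none of the 6 chains was called lower in excision than in sham, higher in PNU-282987 than in excision, or either way between PNU-282987 and sham. The matching shares of all genes were 5.48%, 3.9%, and 2.58% higher with 4.96% lower. For excision against sham the share of genes with a lower ratio was 66.6% for Ifnlr1, 39.7% for Ifnar2, 27.9% for Ifnar1, 27.1% for Ifngr1, 24.4% for Il10rb and 16.3% for Ifngr2. Even the outermost chain was thus well inside the spread of all genes.

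**Figure D3:**
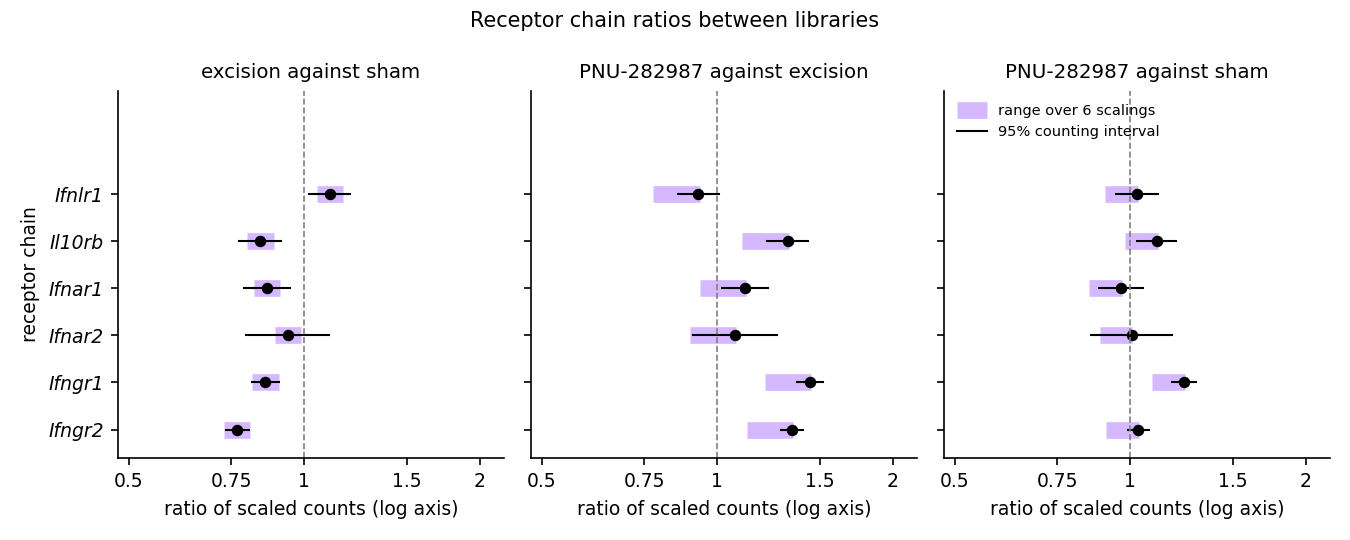
Ratios of TMM-scaled counts of the 6 receptor chains in the 3 comparisons, on log axes, with 95% counting intervals (lines) and the range over 6 scalings (shaded). All points lie between 0.768 and 1.44, and scaling to the epithelium genes gives the lower end of the shaded ranges in both comparisons with PNU-282987.

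The ratio of counts of 2 chains in 1 library does not depend on scaling. Ifnlr1 to Il10rb was 0.926 (0.854 to 1.004) in sham, 1.22 (1.12 to 1.33) in excision and 0.857 (0.792 to 0.926) with PNU-282987. The excision value was 1.32-fold higher than that of sham (1.17 to 1.48) and 1.42-fold higher than that of PNU-282987 (1.27 to 1.60), beyond counting error. Ifnlr1 took 10.1% of the counts of the 6 chains in sham, 13.2% in excision and 9.54% with PNU-282987. Ifnar1 to Ifnar2 was 3.47 in sham, 3.202 in excision and 3.33 with PNU-282987, with ratios between libraries whose intervals all included equal values (excision to sham 0.922, 0.763 to 1.11). Ifngr1 to Ifngr2 was 0.690 in sham, 0.771 in excision and 0.827 with PNU-282987. It was 1.20-fold higher in PNU-282987 than in sham (1.13 to 1.28) and 1.12-fold higher in excision than in sham (1.04 to 1.20).

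**Figure D4:**
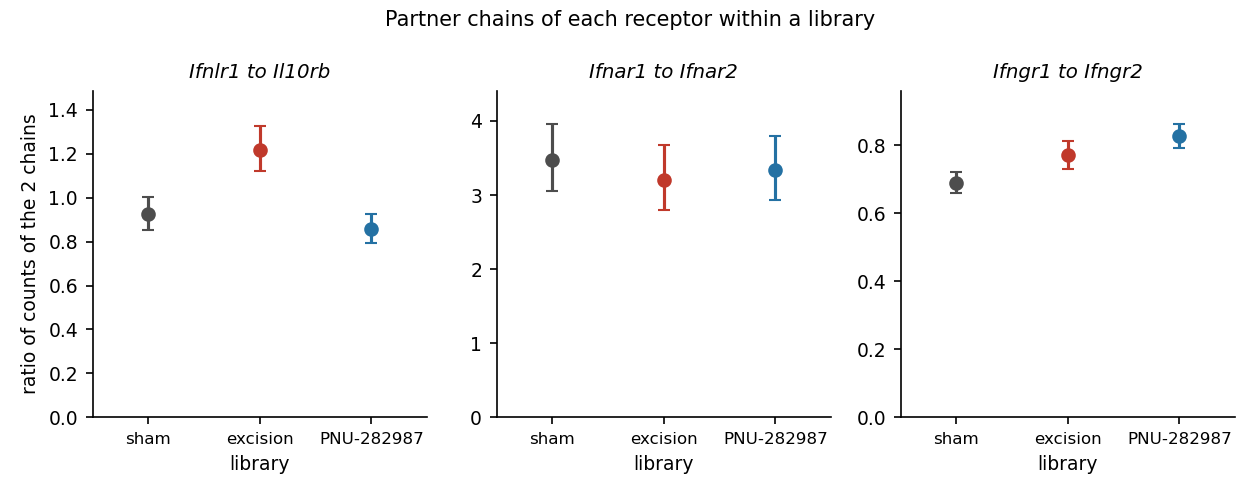
Ratio of counts of the 2 chains of each receptor within a library, with exact 95% intervals and axes from 0. Ifnlr1 to Il10rb stands at 1.22 in excision, above 0.926 in sham and 0.857 in PNU-282987, while the intervals of Ifnar1 to Ifnar2 overlap in all 3 libraries.

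Per kilobase of the longest coding transcript in GENCODE M21, the gamma receptor chains had the highest levels in excision, at 32.7 CPM per kilobase for Ifngr1 and 24.2 for Ifngr2. Il10rb followed at 14.6 CPM per kilobase, then Ifnlr1 at 7.90 (7.46 to 8.35), Ifnar1 at 6.11 (5.72 to 6.53) and Ifnar2 at 2.45 (2.17 to 2.75). By this length the ligands stood between the type I receptor chains, at 3.88 CPM per kilobase for Ifnl2 (3.16 to 4.71) and 3.80 for Ifnl3 (3.02 to 4.71), and do not differ from each other beyond counting error. The length was 702 bases for Ifnl2 and 582 for Ifnl3, the latter its coding sequence alone, so ligand levels may be too high beside the chains. The union of exons gave the same 2 lengths. In sham Ifnlr1 (7.13, 6.73 to 7.55) and Ifnar1 (7.07, 6.66 to 7.51) did not differ beyond counting error, with the order of the other chains as in excision. In PNU-282987 the chains came to 47.2 for Ifngr1, 32.5 for Ifngr2, 19.3 for Il10rb, 7.33 for Ifnlr1 (6.92 to 7.76), 6.83 for Ifnar1 (6.42 to 7.26) and 2.63 CPM per kilobase for Ifnar2. The annotation behind the deposited counts is not given, and Il10rb in excision came to 7.12 CPM per kilobase, below Ifnlr1, when the union of all exons was used as the length, and in sham Ifngr1 at 28.3 then came below Ifngr2 at 31.0. With the union length Ifnar1 came to 4.02 in excision, inside the intervals of both ligands, and to 4.66 in sham, below Ifnlr1, so its place in the order depends on the length used. Il10rb and Ifnar2 also share exon sequence with Gm21970, a gene model on the same strand in GENCODE M21. Gm21970 was not among the genes analysed, so whether reads there were lost is unknown.

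The 4 receptor genes Ifnar2, Il10rb, Ifnar1 and Ifngr2 lie in this order on chromosome 16 in that annotation. Their ratios of excision to sham were 0.937, 0.841, 0.864 and 0.768. All 4 were lower in excision, Ifnar2 within counting error, while Ifnlr1 on chromosome 4 was higher and Ifngr1 on chromosome 10 was lower at 0.858.

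Markers of several tissues also differed between the libraries, in more than 1 pattern. The excision library held less corneal endothelium transcript, from the inner cell layer, with 6 of 6 markers called lower than in sham and summed levels of 686, 145 and 404 CPM. Keratocyte and stroma markers were called lower in excision than in sham in 2 of 7 cases, with sums of 1559, 1072 and 1179 CPM, and lens markers in 5 of 6. Of all genes 5.48% were called lower in excision than in sham and 4.01% higher. The 5 lens markers called summed to 332, 5.52 and 285 CPM, while Cryab, which is also expressed outside the lens, was at 219.6, 147.7 and 221.1 CPM. As a check of the labelled tissue, the corneal epithelium markers, the defining keratin Krt12 among them, summed to 82434, 78222 and 93481 CPM, above every other marker list in all 3 libraries. Of these 8 epithelial markers 1 was called higher in excision than in sham and none lower. Krt12 was at 39479.4, 30578.5 and 42091.9 CPM, lowest in excision. The other 7 summed to 42954.9, 47644 and 51388.7 CPM, lowest in sham. Scaling to the epithelium genes uses the summed counts of these 8 markers, so it follows the most abundant of them. Neutrophils carry the lambda receptor in mice. Of their 5 measured markers 5 were called lower in excision than in sham, and 4 were called lower in PNU-282987 than in sham. In these comparisons 5.48% and 4.96% of all genes were called lower. However, 3 of the 5 had passed the count minimum through sham alone, so these calls carry no weight as a count. S100a9 was at 18.4, 0.916 and 15.9 CPM, and the other 6 markers analysed summed to 5.94, 1.27 and 1.65 CPM. Conjunctival, goblet and gland markers summed to 2101, 3476 and 5437 CPM. Most of that sum was Krt13, at 2022, 3091 and 4619 CPM, and the other 7 markers summed to 78.6, 385 and 818 CPM. All 8 of these markers were called higher in PNU-282987 than in sham, but 5 had passed the count minimum through PNU-282987 alone, and their calls carry no weight as a count. Retina markers summed to 10.7, 2.16 and 18.1 CPM and red blood cell markers to 71.8, 17.2 and 9.61 CPM. The part of these tissues in the receptor values was not tested.

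The other chains of the class II cytokine receptor family, to which all interferon receptors belong, gave 5 measured genes of 6. For excision against sham 1 was called higher and none lower, with a median log2 ratio of -0.35, where 4.01% and 5.48% of all genes were. Il10ra, the ligand-binding chain for interleukin-10 and a gene of immune cells, had 4, 24 and 11 counts and was 6.31-fold higher in excision than in sham (2.17 to 25.0). It passed the count minimum only through excision. Il22ra1, the epithelial partner of Il10rb in the interleukin-22 receptor, had 91, 54 and 69 counts and was 1.60-fold lower in excision (1.13 to 2.29). Il20rb had 2554, 1911 and 2272 counts, Il20ra 306, 253 and 269, and F3, which encodes tissue factor, 8776, 6264 and 9128. These 3 were 1.27-fold, 1.15-fold and 1.33-fold lower in excision than in sham, the interval of Il20ra including equal levels. Il22ra2, a soluble decoy for interleukin-22, had 0, 0 and 2 counts. Of 6 interleukin-10 family ligands only Il19 was analysed, with 0, 0 and 3 counts.

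Of the kinases and factors next to the receptors, Stat2 and Irf9, which act in type I and type III signalling, were called higher in excision than in sham. Stat2 had 1064, 3448 and 980 counts (3.41-fold higher, 3.18 to 3.66), and Irf9 had 2129, 4559 and 1742 (2.25-fold higher, 2.14 to 2.37). Both were called lower in PNU-282987 than in excision, Stat2 by 3.68-fold (3.43 to 3.96) and Irf9 by 2.74-fold (2.59 to 2.89). The kinase genes stayed within 2-fold in all 3 comparisons, with 7288, 6723 and 9259 counts for Jak1, 1973, 2143 and 2748 for Jak2 and 1130, 1159 and 1129 for Tyk2.

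Inhibitors of the receptors were called higher in excision than in sham in 2 of 8 cases, with none lower and a list median of 0.07 on the log2 scale (-0.005 when scaled to total counts). The shares of all genes were 4.01% higher and 5.48% lower. Usp18, which binds the Ifnar2 chain and blocks type I signalling, had 302, 2822 and 337 counts (9.83-fold higher, 8.73 to 11.1). Socs1, an inhibitor of the receptor-bound kinases, had 66, 141 and 43 counts (2.25-fold higher, 1.67 to 3.06). Both were called lower in PNU-282987 than in excision, as was Socs3 with 50, 29 and 13 counts (2.33-fold lower, 1.18 to 4.89). Socs3 was also 3.82-fold lower in PNU-282987 than in sham (2.05 to 7.67).

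Sensors and factors that switch on interferon genes were called higher in 3 of 16 measured cases and lower in 1, with a median log2 ratio of 0.32 for excision against sham. The shares of all genes were 4.01% higher and 5.48% lower. This list too was chosen with earlier results of these data known, so its counts of calls are a description. Dhx58, a relative of the RNA sensors, had 601, 2418 and 459 counts (4.23-fold higher, 3.87 to 4.64), and Irf7, the factor that amplifies interferon expression, 5240, 11649 and 4085 (2.34-fold, 2.26 to 2.42). Ifih1, a sensor of long double-stranded RNA, had 1580, 3050 and 1979 counts and was 2.03-fold higher (1.91 to 2.16), a call that ended when scaled to total counts (1.93-fold). Sting1, the adaptor of the DNA-sensing pathway, had 84, 38 and 67 counts and was 2.10-fold lower (1.42 to 3.17), a call that ended when scaled to the epithelium genes. In PNU-282987 against excision 2 of the 16 were called lower, Dhx58 (5.51-fold, 4.99 to 6.10) and Irf7 (2.98-fold, 2.88 to 3.09), where 5.62% of all genes were. Irf3, the factor already present in resting cells, was at 2400, 2015 and 2444 counts.

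Most target genes of the receptors were called between libraries. Of 28 measured genes induced by type I and type III interferon, 26 were called higher in excision than in sham and none lower, with a list median of 1.95 on the log2 scale, and 24 were called lower in PNU-282987 than in excision (median -2.69). Of 16 measured genes induced by interferon gamma, 14 were called higher in excision (median 2.15) and 13 lower in PNU-282987 than in excision (median -1.86). Of these 16, Nlrc5, Cxcl9 and Ciita passed the count minimum through excision alone, which favoured their calls. Among all genes with a ratio, 4.01% were called higher for excision against sham and 5.62% lower for PNU-282987 against excision. Since both target lists were chosen with earlier results of these data known, their counts of calls are a description. In the first list Ifi27l2a, a small mitochondrial interferon-induced protein gene, had 370, 13664 and 118 counts and was 38.9-fold higher in excision than in sham (35.04 to 43.2). Rsad2, which encodes the antiviral enzyme viperin, had 170, 2005 and 30 counts (12.4-fold higher, 10.6 to 14.6), and Oas2, a sensor of double-stranded RNA, had 804, 9010 and 318 (11.8-fold higher, 11.0 to 12.7). Cmpk2 had 113, 1480 and 72 counts (13.8-fold higher, 11.4 to 16.8). All 4 had fewer counts in PNU-282987 than in sham. In the gamma list Nlrc5, the activator of MHC class I genes, had 13, 489 and 10 counts (39.6-fold higher, 22.9 to 74.9), and the chemokine gene Cxcl9 had 1, 29 and 0. Cd74, the invariant chain of MHC class II, had 282, 2297 and 591 counts (8.57-fold higher, 7.57 to 9.73), H2-Ab1 94, 736 and 204 (8.24-fold, 6.64 to 10.3). The GTPase genes Igtp, with 348, 2316 and 212 counts, and Gbp4, with 393, 2891 and 437, were 11.4-fold and 6.92-fold lower in PNU-282987 than in excision. T cell and macrophage or dendritic markers were also highest in excision, as given beside the ligands, and their part in the target genes was not tested. Irf1, a shared target of the type I and gamma receptors, was not called in any comparison, at 13565, 14606 and 14434 counts. Between excision and sham, Psmb8 in the gamma list (1.53-fold higher) was also not called. In the first list Ifi35 (1.64-fold higher) and Samd9l (1.31-fold higher) were not called either. Whether the genes of either list answered a single interferon type was not tested. Irf1, Irf7, Stat2 and Usp18 are among the genes in more than 1 list. Transcripts of the ligand pair and of most measured targets were higher in excision than in sham. Both were chosen with earlier results of these data known, so nothing is read from this, and a link between them was not tested. The receptor chains in excision were within 1.30-fold of sham.

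**Figure D5:**
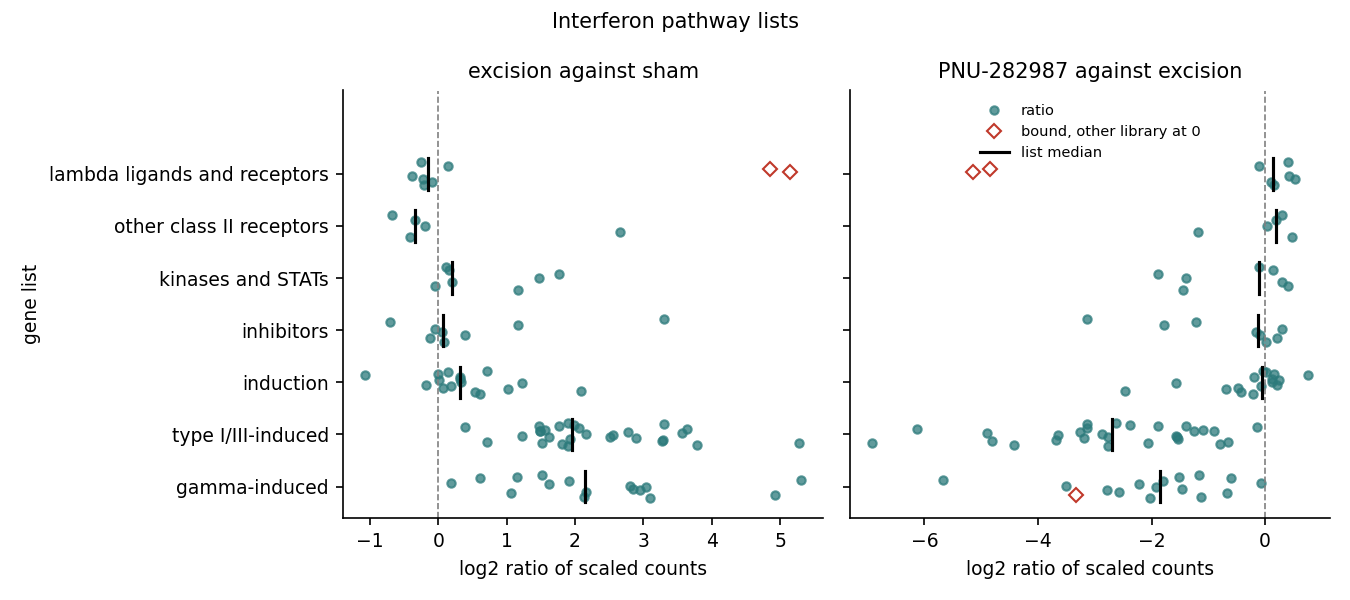
Log2 ratios of TMM-scaled counts for measured genes of 7 lists in 2 comparisons that share the excision library (circles), with list medians (black bars) and bounds for genes at 0 in the other library (diamonds). The bounds of the 2 lambda ligands lie within the range of the target genes, and the 6 receptor chains lie near 0.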

How the data were processed

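Cornea RNA was sequenced in 3 libraries, 1 per group, after TRIzol extraction and library preparation with a VAHTS Universal V6 kit, per the labels' protocols. What the authors deposited is 1 table of unnormalized whole-number counts per gene. It was used without change. HTSeq and R 3.2.0 are named in the submitters' processing notes. The sources used here do not give the aligner, build, annotation, strand setting or treatment of shared reads. The members and lists were chosen with earlier results of these data known.

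Effective library sizes were total counts times TMM factors from edgeR 4.0.16 under R 4.3.3 (sham 1.04, excision 0.985, PNU-282987 0.980). Ratios of scaled counts had exact conditional binomial (Clopper-Pearson) 95% intervals. A library at 0 entered at a floor of 3 counts, so that its fold is a bound that leaves out the other library's counting error. No ratio was formed where both libraries had 3 counts or fewer. 1 gene of the list of kinases and factors next to the receptors is not reported here, nor are that list's counts. The 14180 genes that reached 20 counts in any library were kept. With 1 library per group no test and no p-value was computed. The ratio, interval and call rule were tested on simulated Poisson counts for genes with at least 20 counts in sham. No gene was simulated as absent from a library, and no variation between mice was simulated. No molecular identifiers are mentioned, so reads need not be separate molecules and intervals and floors cover counting error only.

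Named genes were all 8 members, up to 4 called genes with the largest ratios per pathway list and comparison, the other class II receptor chains, the other interferon ligands with a count, the 8 genes with most excision counts among those with at most 3 elsewhere, and the genes nearest to each chain by distance of centred log2 levels (5 for Ifnlr1, 2 for each other). Outside this rule Cd3g, Klrb1c, Siglech, Spib, Tcf4, Itgax, S100a9, Cryab, Ciita, Krt12, Krt13, H2-Q9, Ppp2r2c, Il19, Irf1, Irf3, Jak1, Jak2, Tyk2, Epsti1, Isg15, Rtp4, Psmb8, Ifi35 and Samd9l were named after their values were seen. Scalings by total counts, DESeq2 1.42.0 size factors, upper quartile, TMM without 6 marker lists and corneal epithelium genes were alternatives. Lengths and coding sequences came from GENCODE M21 (GRCm38), whose build may differ from that of the counts, so no gene coordinates are printed. All 8 symbols and gene IDs matched RefSeq. Remaining steps used Python 3.11.15, NumPy 2.4.6, pandas 2.3.3, SciPy 1.17.1 and matplotlib 3.10.9.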

Additional observations from a re-analysis of the deposited data

How the results depend on the processing

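The count of members called (2, 2 and 0 of 8 for excision against sham, PNU-282987 against excision and PNU-282987 against sham) was the same under all 8 alternatives. Counts over all genes moved most with the thresholds. For the 3 comparisons in this order, the genes called higher and lower were 568 and 777, 553 and 797, and 366 and 703. A fold threshold of 1.5 gave 1166 and 1281, 1081 and 1582, and 712 and 1376. A minimum of 50 counts gave 337 and 466, 351 and 459, and 206 and 373, since fewer genes were tested. Without a filter on low counts 948 genes were higher in excision than in sham, 1240 lower in PNU-282987 than in excision, and 649 higher and 1080 lower in PNU-282987 than in sham. Scaling to the corneal epithelium genes shifted the median of all genes by -0.26 (log2) in the second comparison and -0.18 in the third, with 377 higher and 1274 lower, and 265 and 1020. Under that scaling the ratios of PNU-282987 to excision were 0.777 for Ifnlr1, 1.11 for Il10rb, 0.935 for Ifnar1, 0.898 for Ifnar2, 1.21 for Ifngr1 and 1.12 for Ifngr2, and Ifnar2 in PNU-282987 against sham turned from 1.01 to 0.887 (0.952 by total counts). The other 4 scalings moved that median by at most 0.08. No paired analysis was possible because each group has 1 library, and none could be left out. The union of exons as gene length was an alternative chosen after seeing the data. Depth limits Ifnar2 and the ligands outside excision, where a count of 0 bounds the level only at the floor of 3 counts.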

Other observations

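The PNU-282987 and sham libraries differed in some interferon targets. Of 28 measured genes induced by type I and type III interferon 6 were called lower in PNU-282987 than in sham and 1 higher, with a list median of -0.37 on the log2 scale against 0.0001 for all genes. Over all genes 4.96% were called lower and 2.58% higher in this comparison. The list was chosen with earlier results of these data known, so its counts of calls are a description. Rsad2, the gene of the antiviral enzyme viperin, had 170 counts in sham and 30 in PNU-282987 (5.63-fold lower, 3.81 to 8.61). Ifi27l2a had 370 and 118 (3.12-fold lower, 2.53 to 3.87), Ifi44 had 222 and 76 (2.90-fold lower, 2.23 to 3.82) and Oas2, a sensor of double-stranded RNA, had 804 and 318 (2.51-fold lower, 2.21 to 2.87). Isg15 and Rtp4 were the others called lower, and Epsti1 was called higher at 56 and 112 counts. Of 16 measured genes induced by interferon gamma 3 were called higher and none lower (median 0.11). The 3 were the MHC class II genes H2-Aa (116 and 301 counts, 2.61-fold higher, 2.10 to 3.26), H2-Ab1 (94 and 204, 2.18-fold, 1.70 to 2.82) and Cd74 (282 and 591, 2.11-fold, 1.83 to 2.44). Scaled to the corneal epithelium genes, 7 of the first list were called lower and none higher, and of the gamma list 1 was called higher with the median turning to -0.07. The call of Epsti1 also ended when scaled to total counts or by upper quartile. By total counts 2 of the gamma list were called higher. Macrophage and dendritic markers summed to 26.1 CPM in sham and 39.6 CPM in PNU-282987, and their part in these values was not tested.

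Genes with nearly the same profile as a receptor chain were common over these 3 libraries. Among the 10191 genes that reached 100 counts in every library, 969 lay within a distance of 0.1 (log2) of Ifnlr1 and 352 within that distance of Ifngr1. The 5 genes nearest to Ifnlr1 were Dus3l, Stau2, Ppp1r12a, Ank3 and Bmyc, at distances of 0.0025 to 0.0057. The nearest were Trim32 and Rbbp4 for Il10rb, Atraid and Bmi1 for Ifnar1, Tbpl1 and Ube2l3 for Ifnar2, Papss1 and Atp6v1a for Ifngr1, and Cul5 and Inpp5f for Ifngr2. Between receptor chains the smallest distance was 0.083, for Ifnar1 and Ifnar2, and the largest 0.45, for Ifnlr1 and Ifngr1.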
